A study of Neurospora crassa with 18 samples.

Results

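The *Neurospora crassa* mating-type genes *mat A-1* (NCU01958), *mat A-2* (NCU01959) and *mat A-3* (NCU01960) were examined for RNA level and chromatin state. They are 3 of the 9730 genes in the count tables, taken by locus tag, with no measured value in the rule. Poly-A+ RNA of germinated conidia (asexual spores) was sequenced from 4 strains, with 2 libraries each. WT (N623) was a *his-3* strain of mating type *A*. The parent (N2930) shared *his-3* and mating type *A* and carried Δ*mus-52*::*bar*, and so lacked a gene of non-homologous end joining whose loss aids gene targeting. The *ash1*(Y888F) strain (N4878), again *his-3* and of mating type *A*, carried *ash1*(Y888F)-3xFLAG::*hph*, an allele of the H3K36 methyltransferase gene with a substitution at a tyrosine of the catalytic SET domain. The Δ*set-2* strain was N5761 (*mat a*; Δ*set-2*::*hph*), which lacks the other H3K36 methyltransferase and carries the opposite mating type and no *his-3* mutation. Each genotype was 1 strain, so the spread between its libraries does not cover differences between independent isolates. Gene lists from ChIP-seq gave the genes with H3K36me2 when SET-2 was absent (ASH1-marked), the genes without it, and the genes with H3K27me2/3 in WT.

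*N. crassa* is heterothallic, and its mating type is set by which of a pair of unrelated sequences, the *A* or the *a* idiomorph, occupies the mating-type locus on linkage group I. In *A* strains, *mat A-1* encodes an alpha-domain transcription factor that is needed for mating identity and fertilisation and that also takes part in the vegetative incompatibility between *A* and *a* strains. *mat A-2* and *mat A-3*, the latter coding for an HMG-domain protein, act after fertilisation and are needed for normal ascospore formation. An *a* strain does not carry these 3 genes.

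The 3 genes lie side by side on linkage group I of the corrected OR74A genome (NC12), within a span of 5001 bp (positions counted from 1). *mat A-3* occupies 1857194 to 1858469 on the minus strand, *mat A-2* occupies 1859093 to 1860424 on the plus strand, and *mat A-1* occupies 1860692 to 1862194 on the plus strand. *mat A-3* and *mat A-2* are divergent, with 0.623 kb between their starts, and 267 bp separate *mat A-2* from *mat A-1*. None of the 3 genes overlaps another gene model. The nearest neighbours, NCU01961 and NCU01957, end 1314 bp before and begin 3402 bp after the trio. The *ash1* gene itself (NCU01932) is on the same linkage group, 108 kb beyond *mat A-1* with 21 genes in between.

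The libraries held 6547197 to 8837798 counts in genes, a depth at which 3 counts, the floor used for a count of 0, equal 0.339 to 0.458 CPM (counts scaled to a total of 1000000 counts in genes). The labels of the strains were checked on the altered genes. *mus-52* had 2 counts in each parent library and 255 to 483 in the other 6. *set-2* had 46 and 50 counts in Δ*set-2* and 113 to 210 elsewhere, lower but not near 0, and counts per gene do not show whether these reads lie outside the deleted part. *ash1* had 179 and 181 counts in Δ*set-2* and 556 to 825 in the other 6 libraries, and its point mutation cannot be checked from counts. All 7 conidial markers (*con-6*, *con-8*, *con-10*, *con-13*, *eas*, *cat-1* and *fl*) had counts in every group, with summed levels of 125 to 334 CPM in the 6 *mat A* libraries and 1060 and 1174 CPM in Δ*set-2*, where 5 of 6 tested were called higher than WT (edgeR). The dates in the library names place WT and the parent together, *ash1*(Y888F) library 2 with both Δ*set-2* libraries, and *ash1*(Y888F) library 1 apart. What they date is not stated, no mutant library shares a date with WT, and date and strain therefore cannot be told apart.

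The comparison of *ash1*(Y888F) with WT asked how RNA of the mating-type genes differed in the strain with the catalytic substitution. None of the 4 strains carried a tagged allele without it. The substitution, the 3xFLAG tag, the *hph* marker, the isolate and the date therefore cannot be told apart. *mat A-1* RNA was low in both *mat A* controls and rose in the mutant. The WT libraries held 13 and 15 counts, the parent libraries 11 and 25, and the *ash1*(Y888F) libraries 239 and 486. In CPM these are 1.74 and 1.85 for WT, 1.35 and 2.83 for the parent, and 33.4 and 74.2 for the mutant, with group means of 1.80 ± 0.0783, 2.09 ± 1.05 and 53.8 ± 28.9 (SD, n = 2). The groups did not overlap, and the lower mutant library was 11.8 times the highest of the 4 control libraries. The mutant libraries themselves differed 2.22-fold from each other, library 2 being the higher. The log2 change against WT was 4.73 (SE 0.43, adjusted p = 0.00368, edgeR quasi-likelihood test with Benjamini-Hochberg adjustment over 8125 genes). Against the parent it was 4.56 (SE 0.49, adjusted p = 0.00541, same test). These comparisons share the mutant libraries.

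*mat A-2* had no count in any WT or parent library and 46 and 55 counts in *ash1*(Y888F), or 6.43 and 8.40 CPM (mean 7.42 ± 1.39, SD, n = 2). Both mutant libraries were thus above all 4 controls, and their 95% exact Poisson intervals do not meet those of the controls. Taking 3 counts for each control group as its floor, RNA was at least 38.3-fold higher than in WT and at least 41.8-fold higher than in the parent. Adjusted p was 0.00716 against WT and 0.00634 against the parent (edgeR quasi-likelihood test, Benjamini-Hochberg). The fitted log2 change, 8.70, depends on the prior count that edgeR adds and is no measure of size here.

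For *mat A-3*, WT held 0 and 1 counts, the parent 0 and 0, and *ash1*(Y888F) 38 and 88. The mutant libraries reached 5.31 and 13.4 CPM (mean 9.38 ± 5.75, SD, n = 2), again above every control and 2.53-fold apart. The ratio to WT was 143 with an exact 95% counting interval of 25.2 to 5703, and against the parent RNA was at least 52.1-fold higher. Adjusted p was 0.00883 against WT and 0.00933 against the parent (edgeR quasi-likelihood test, Benjamini-Hochberg). The fitted log2 change of 6.70 against WT turned on 1 count, being 8.96 without WT replicate 2, the library that holds it, and 5.89 without WT replicate 1. Intervals and floors cover counting error only.

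All 3 genes were thus called higher in *ash1*(Y888F), where 1053 of the 8125 genes tested (13%) were called higher than WT and 15.9% higher than the parent. *mat A-2* and *mat A-3* passed the filter on low counts only through the mutant libraries, so a difference was built into their being tested, and the count of 3 carries no support of its own. *mat A-1* passed the filter in the control libraries alone as well.

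**Figure D1:**
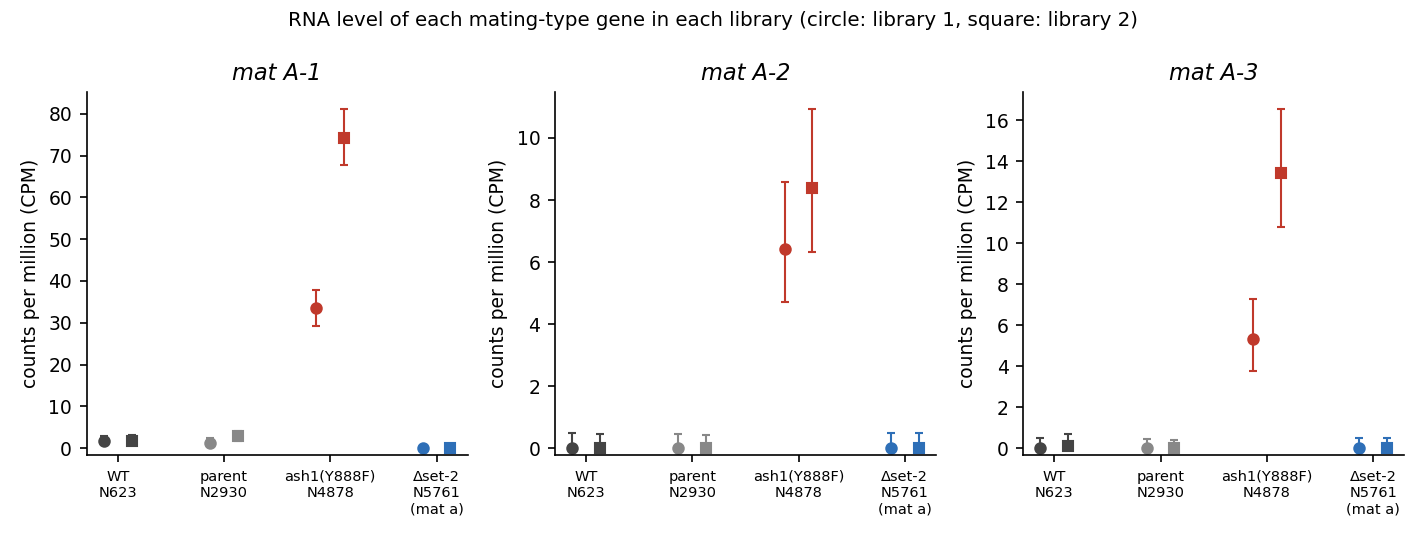
Levels of *mat A-1*, *mat A-2* and *mat A-3* in CPM (vertical axes, linear and different for each gene) in the 2 libraries of each strain, with exact 95% Poisson intervals that cover counting error only. In each panel both *ash1*(Y888F) libraries lie above the other 6, and in *mat A-1* they reach 33.4 and 74.2 CPM.

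RNA level was next set against gene length, as CPM per kb of gene span, to compare the 3 genes with each other. In *ash1*(Y888F), *mat A-1* stood at 22.2 and 49.4 CPM per kb, *mat A-2* at 4.83 and 6.31, and *mat A-3* at 4.16 and 10.5. *mat A-1* was the highest in both libraries. *mat A-2* was 0.217 and 0.128 of the *mat A-1* level per length and *mat A-3* was 0.187 and 0.213, and their order changed from one library to the other, so *mat A-2* and *mat A-3* did not differ beyond their spread. In WT and the parent, *mat A-1* stood at 0.897 to 1.88 CPM per kb.

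The place of these levels among all genes shifted accordingly. *mat A-1* was above 25.4 to 30.4% of all genes by CPM per kb in the 4 control libraries, below the median gene level of 8.88 (WT) and 9.37 (parent) CPM per kb. In *ash1*(Y888F), where the median was 10.4, *mat A-1* was above 73.3 and 84.7% of genes. *mat A-2* remained in the lower part of the range there, above 36.9 and 35.7% of genes, and *mat A-3* was above 34.1 and 47.4%.

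The makeup of the trio's RNA was compared between the groups as a share of counts. Over WT and the parent together the 3 genes had 65 counts, of which 64 (98.5%, exact 95% interval 91.7 to 100%) were from *mat A-1*, 1 was from *mat A-3*, and none was from *mat A-2*, which allows a share of up to 4.62% at the floor of 3 counts (exact 95% upper limit 5.52%). Of the 952 counts in *ash1*(Y888F), 76.2% (73.3 to 78.8%) were from *mat A-1*, 10.6% (8.72 to 12.7%) from *mat A-2* and 13.2% (11.1 to 15.6%) from *mat A-3*. Library 1 gave 74.0, 14.2 and 11.8% of 323 counts, and library 2 gave 77.3, 8.74 and 14.0% of 629 counts. With counts pooled over libraries, the counting interval of the *mat A-1* share in the mutant lay below that in the controls. By single library, the interval of parent library 2 (86.3 to 100%) lay above those of both mutant libraries (68.8 to 78.7% and 73.8 to 80.5%). Those of the other control libraries overlapped them. *mat A-2* and *mat A-3* took the remainder in a different order in each mutant library.

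The parent, whose listed genotype differs from WT by the *mus-52* deletion, served as a control comparison between *mat A* strains. *mat A-1* was at 1.80 ± 0.0783 CPM in WT and 2.09 ± 1.05 CPM in the parent, with WT lying between the parent libraries. The log2 change was 0.16 (SE 0.47, adjusted p = 0.874, edgeR quasi-likelihood test, Benjamini-Hochberg), and it was -0.46 without parent replicate 2. Here 1.78% of 7464 genes were called in either direction, a count of 133 that ranged from 5 to 2429 over the alternatives, the highest being with the replicate number as a block. *mat A-1* was called in none of them (adjusted p of 0.734 to 0.974, edgeR or DESeq2). *mat A-2* and *mat A-3*, with at most 1 count in these 4 libraries, did not pass the filter and were not tested.

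None of the 3 genes had a count in either Δ*set-2* library. For *mat A-1* this is at least 8.94-fold lower than WT, and at least 10.5-fold lower than the parent. The gene was called lower than WT by edgeR, where 19.8% of 7741 genes were called lower with TMM scaling. An *a* strain does not carry the gene, so this outcome was fixed in advance and tests nothing. Without WT replicate 2 the gene did not pass the filter and was not tested. For *mat A-2* and *mat A-3* both WT and Δ*set-2* were at or under the floor, so no fold is given and a difference was not detectable at this depth. N5761 is a *mat a* strain and does not carry the *A* idiomorph. Nothing about the response of these genes to loss of SET-2, or to the *his-3* background, can therefore be read from these counts. The part of the higher conidial markers in the Δ*set-2* values was not tested. RNA of the *a* idiomorph was not analysed here.

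The chromatin lists divided the trio. *mat A-3* was on the ASH1-marked list, which holds 1970 genes or 20.2% of the total, while *mat A-2* and *mat A-1* were on the list of unmarked genes. None was among the 836 genes (8.59%) listed for H3K27me2/3, and the nearest gene on that list was 1375 kb away. The marked stretch that holds *mat A-3* comprised 2 genes, *mat A-3* and its neighbour NCU01961, and the divergent promoter region between *mat A-3* and *mat A-2* was where list membership changed. Beyond it no gene was on the marked list for 55.0 kb past *mat A-1*, and none for 32.0 kb on the other side. Of the 2347 genes of linkage group I, 15.9% were marked.

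The lists give membership with no value per replicate, so its spread was not examined. The study used both a *mat a* and a *mat A* strain with the *set-2* deletion, and the labels do not give which was used for the H3K36me2 sample. In a *mat a* strain the spans of these 3 genes would hold no DNA of their own to be mapped, so for *mat A-1* and *mat A-2* a place among unmarked genes and an absence of the sequence cannot be told apart. The reads behind the listing of *mat A-3* were not examined here.

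The RNA changes were then set against those of all genes on the same list. Among 6958 unmarked genes tested, the median log2 change in *ash1*(Y888F) was -0.06 and 5.35% were called higher than WT, and 52 of them (0.747%) had a log2 change above that of *mat A-1*. Among 1167 marked genes tested, the median was 2.34 and 58.4% were called higher, and 307 (26.3%) were above *mat A-1*. The change of *mat A-1* was therefore in the upper tail of the unmarked list, and in the upper part of the marked list. Which list is its proper background is open, as its sequence was absent from the ChIP strain if that strain was *mat a*.

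Genes without RNA in WT give a closer background for *mat A-2*. Of 348 unmarked genes with no count in either WT library, 11 (3.16%) reached 10 or more counts in both *ash1*(Y888F) libraries, and *mat A-2* had the highest count of them when each gene was ranked by its lower mutant library. Of 660 marked genes with no count in WT, 109 (16.5%) reached 10. For *mat A-3*, 51 of the 822 marked genes (6.20%) with at most 1 count in WT reached the 38 counts that it had in its lower mutant library, itself included. These thresholds were set after the counts were seen and the shares are a description. The place of *mat A-2* among unmarked genes is open for the same reason as that of *mat A-1*.

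**Figure D2:**
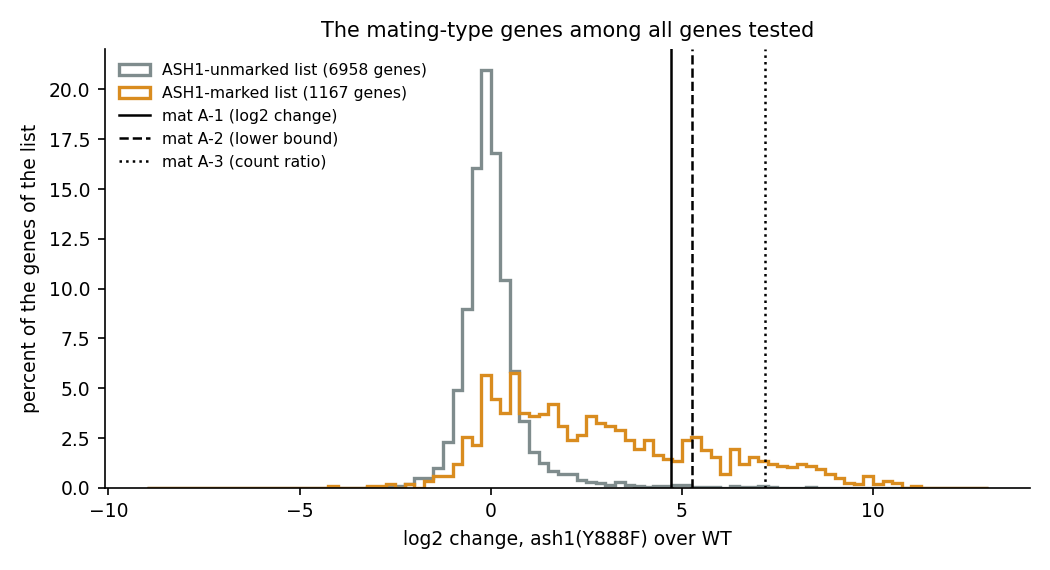
Distribution of log2 change in *ash1*(Y888F) over WT (horizontal axis) for the 6958 unmarked and 1167 marked genes tested, as percent of the genes of each list (vertical axis, bins of equal width). The solid line is the log2 change of *mat A-1* (4.73), which lies to the right of nearly all unmarked genes. The dashed line is the lower bound of *mat A-2*, at least 38.3-fold. The dotted line is the count ratio of *mat A-3*, 143, a gene of the marked list. The dashed and dotted lines come from counts and not from the fit behind the distributions. *mat A-2* and *mat A-3* were tested only through the mutant libraries, so the place of their lines is no result.

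The genes around the trio were examined next. Of the 5 genes on either side, all tested, none was called in *ash1*(Y888F) against WT with edgeR, where 16.3% of all genes were called, and none had an unadjusted p under 0.05 or was called by DESeq2. In simulated counts this edgeR fit called 8 of 100 genes changed 2-fold and 92 of 100 changed 8-fold. Changes of 2-fold were thus mostly missed there. The simulation changed 200 genes, where 1326 were called in the data, so the same adjusted p asked for a smaller p. Its rates therefore need not hold for these 10 genes. For NCU01961, which shares the marked stretch with *mat A-3*, WT held 143 and 175 counts, the parent 150 and 189, and the mutant 79 and 139. Its log2 change was -0.49 (SE 0.33, adjusted p = 0.437, edgeR), and its difference from *mat A-3* was not tested. For NCU01957, on the *mat A-1* side, WT held 20 and 18 counts, the parent 4 and 10, and the mutant 15 and 76, so that its mutant libraries lay on either side of WT.

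In *ash1*(Y888F), NCU01957 was called with the parent as control (log2 change 2.88, SE 0.85, adjusted p = 0.0852, edgeR), and its change against WT was 1.27 (SE 0.72, adjusted p = 0.362, edgeR). None of the 10 was called in the parent against WT by edgeR or DESeq2, and 1, NCU01957, had an unadjusted p under 0.05 in edgeR. In Δ*set-2*, 5 of the 10 were called, where 41.5% of all genes were. The largest was NCU01961, which fell to 53 and 39 counts (log2 change -1.89, SE 0.29, adjusted p = 0.00714, edgeR), and *eat-5* was also lower (-0.59). NCU01964, NCU01955 and *eat-3* were higher by 0.50, 0.90 and 0.81, and DESeq2 called these genes other than NCU01964. The valyl-tRNA synthetase gene *cyt-20*, *eat-6*, *eat-2*, NCU01954 and NCU01957 were not called. In these and the later comparisons of Δ*set-2* with WT, loss of SET-2, mating type, *his-3* and date cannot be told apart.

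**Figure D3:**
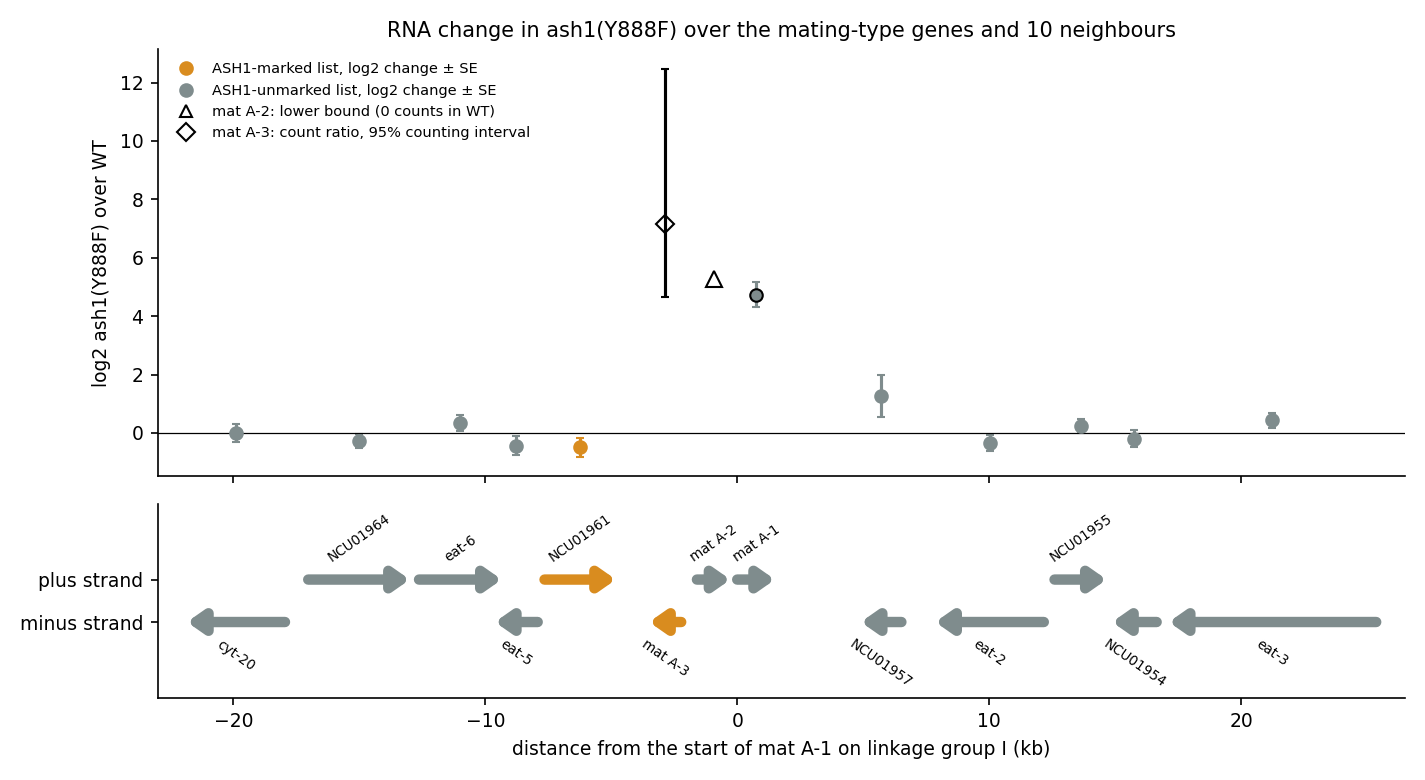
Upper panel, log2 change in *ash1*(Y888F) over WT for the 3 mating-type genes and the 5 genes on either side, at the middle of each gene, with SE for fitted values, a lower bound for *mat A-2* and an exact 95% counting interval for *mat A-3*. Lower panel, the same genes as arrows by strand, coloured by ASH1 list, against distance from the start of *mat A-1* in kb; the 10 neighbours lie between -0.49 and 1.27 and the 3 mating-type genes above 4.

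The mating-type proteins act upstream of pheromone signalling, in which a peptide pheromone of one mating type is recognised by a G protein-coupled receptor of the other and a MAP kinase cascade transmits the signal. A list of 22 genes of this pathway and of sexual development was used, of which 19 matched the annotation by symbol and 17 were tested in *ash1*(Y888F). In that strain edgeR called 3 higher than WT and none lower, where 13% of all genes were called higher and 3.36% lower. None had an unadjusted p under 0.05 in the lower direction, and DESeq2 also called none lower. The median log2 change of the 17 was 0.21, against 0.01 for all genes. The 3 called genes were the 2 pheromone precursors and 1 receptor, and each was on the ASH1-marked list, which holds 4 of the 19. The precursor genes *ccg-4* and *mfa-1* did not pass the filter against WT without the mutant libraries, so a difference was built into their being tested. The receptor gene *pre-1* passed in WT alone as well. The other marked gene, *pre-2*, was not tested in *ash1*(Y888F), and 58.4% of all ASH1-marked genes tested were called higher.

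The *mat A* pheromone precursor gene *ccg-4* reached 1382 and 4840 counts in the *ash1*(Y888F) libraries. WT held 5 and 3, the parent 26 and 31, and Δ*set-2* 0 and 2. The mutant libraries were far above the other *mat A* libraries, and the log2 change was 9.57 against WT (SE 0.82, adjusted p = 0.00318, edgeR) and 6.96 against the parent (SE 0.69, adjusted p = 0.00426, edgeR). The parent itself was 2.61 above WT (SE 0.45, adjusted p = 0.102, edgeR). The receptor gene *pre-1*, whose product is the receptor of *mat A* cells, had 122 and 191 counts in *ash1*(Y888F), where WT held 19 and 17, the parent 30 and 21, and Δ*set-2* 13 and 17. Both mutant libraries were above the other 6, and the log2 change was 3.16 (SE 0.38, adjusted p = 0.00686, edgeR).

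The precursor gene of the opposite mating type, *mfa-1*, also rose in the *mat A* mutant. Its counts were 395 and 240 in *ash1*(Y888F) and 748 and 127 in the *mat a* strain Δ*set-2*, against 11 and 9 for WT and 6 and 6 for the parent. The log2 changes were 5.07 in *ash1*(Y888F) (SE 0.48, adjusted p = 0.00418, edgeR) and 5.33 in Δ*set-2* (SE 0.97, adjusted p = 0.0121, edgeR), against the same WT libraries. The receptor gene of *mat a* cells, *pre-2*, had 13 and 13 counts in Δ*set-2*, 12 and 4 in *ash1*(Y888F), 3 and 1 for WT and 3 and 0 for the parent. It did not pass the filter in *ash1*(Y888F) and was called higher in Δ*set-2*, where 21.7% of all genes were (log2 change 2.52, SE 0.62, adjusted p = 0.0286, edgeR), a call that DESeq2 did not make. *mfa-1* and *pre-2* passed the filter in that comparison only with the Δ*set-2* libraries, so a difference was built into these tests too. Loss of SET-2, mating type and *his-3* cannot be told apart there.

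The genes between receptor and nucleus were not called, which does not show that they were unchanged. In the simulated counts 2-fold changes were mostly missed, though at a stricter threshold than in the data. None of the G protein subunit genes *gna-1*, *gna-2*, *gna-3*, *gnb-1* and *gng-1*, the kinase genes *nrc-1*, *mek-2* and *mak-2*, the scaffold gene *ham-5* or the transcription factor gene *pp-1* was called in *ash1*(Y888F) against WT by edgeR or DESeq2, and 1 of these 10, *gng-1*, had an unadjusted p under 0.05 in both. *fmf-1*, a gene needed for male and female fertility, had at most 1 count in any library and was not tested. With the parent as control, the APSES transcription factor gene *asm-1* was the only other gene of the list called, and it was lower (log2 change -1.22, SE 0.27, adjusted p = 0.0350, edgeR), as were 4.01% of all genes. None of the 16 tested was called in the parent against WT by edgeR, with 5 at an unadjusted p under 0.05, and DESeq2 called 2. In Δ*set-2*, 17 were tested, *gna-3* and *ham-5* were also higher (0.55 and 0.76), and *gng-1* and the female development gene *fsd-1* were lower (-0.70 and -1.24) in edgeR. DESeq2 called 2 higher and 2 lower there, and *gna-3* was not among them.

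**Figure D4:**
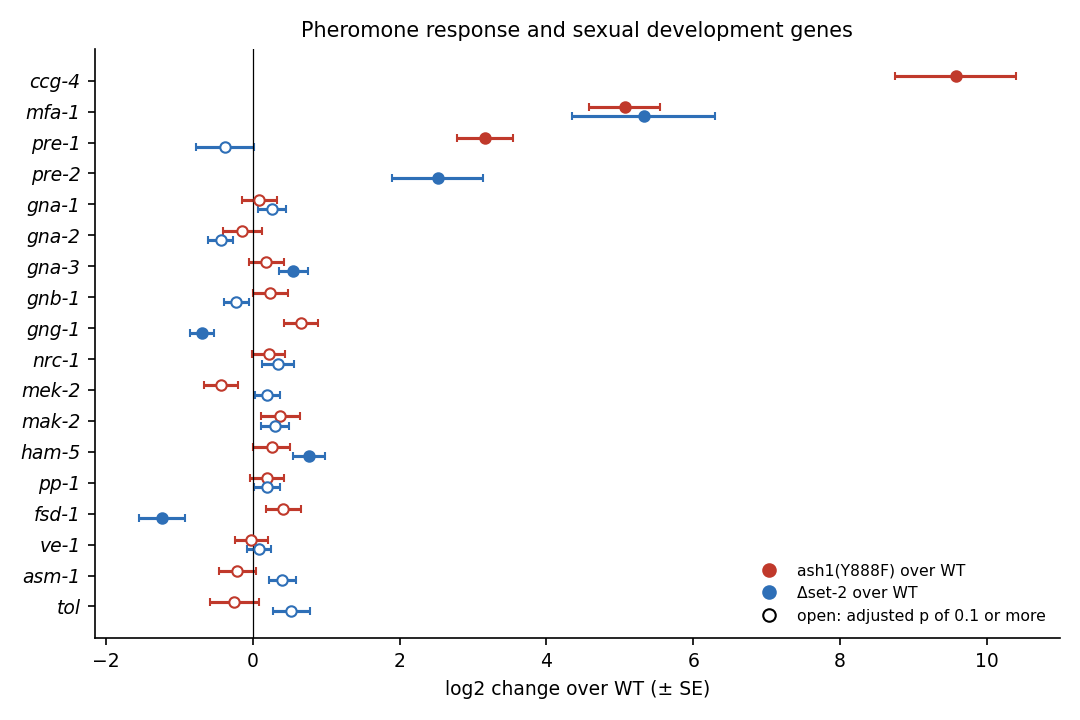
Log2 change over WT (horizontal axis, with SE) of the pheromone response and sexual development genes tested in *ash1*(Y888F) or in Δ*set-2*; filled points had an adjusted p under 0.1 in edgeR. *ccg-4* (9.57), *mfa-1* (5.07) and *pre-1* (3.16) stand apart in *ash1*(Y888F), and *mfa-1* (5.33) and *pre-2* (2.52) in Δ*set-2*.

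Markers of sexual structures were examined next. As a sum they were above WT in *ash1*(Y888F) and also in Δ*set-2*, which does not carry *mat A-1*, *mat A-2* or *mat A-3*. Of 7 markers of protoperithecia and perithecia, 6 matched the annotation and none was at 0 over a whole group. Their summed level was 100 to 145 CPM in WT, 117 to 139 in the parent, 643 to 1290 in *ash1*(Y888F) and 278 to 280 in Δ*set-2*. In Δ*set-2* the higher sum came mostly from *app*, with 1035 and 1032 counts against 5 and 6 in WT. Of 3 markers tested there, *app* was called higher and *fsd-1* lower (edgeR), where 21.7% and 19.8% of all genes were. *app* was tested there only through the Δ*set-2* libraries. In *ash1*(Y888F), 5 of the 6 were called higher than WT by edgeR and by DESeq2, where edgeR called 13% of all genes and 58.4% of ASH1-marked genes higher, and the other, *fsd-1*, had a log2 change of 0.42 (adjusted p = 0.365, edgeR). Of the 5, 4 (*app*, *poi-2*, *asd-3* and *sms-2*) were themselves on the ASH1-marked list. These 4 had at most 10 counts in either WT library and passed the filter only through the mutant libraries. A difference was thus built into their being tested by edgeR, and the count of their calls carries no support of its own. *sms-2*, which codes for an Argonaute protein of meiotic silencing, rose and had 2034 and 2342 counts in *ash1*(Y888F), where WT held 6 and 3 and the parent 2 and 4. For *asd-1*, WT held 860 and 553 counts and the mutant 1450 and 5443, so that *sms-2* was the larger of the pair in mutant library 1 and *asd-1* in library 2. The summed conidial markers were at 125 to 197 CPM in WT, 260 to 266 in the parent and 316 to 334 in *ash1*(Y888F), with 2 of 6 tested called higher than WT and 1 lower, where 13% and 3.36% of all genes were. In bulk RNA a change in the mix of cells and a change of RNA per cell cannot be told apart, and the part of these markers in the result for the mating-type genes was not tested.

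The genes with the most similar profiles were sought by Pearson correlation of log2(CPM + 1), given as a description over libraries that share their 4 strains. The *mat a* strain Δ*set-2* does not carry the mating-type genes, so their values in its libraries were fixed in advance. Correlations over all 8 libraries therefore depend in part on this absence, and those over the *mat A* libraries alone do not. Over all 8 libraries and 8328 genes, *mat A-1* was most like NCU10799 (0.994), NCU09633 (0.991) and NCU02597 (0.990). *mat A-2* was most like NCU04708, NCU08680 and NCU00529 and *mat A-3* most like NCU08813, NCU04624 and NCU07371, all at 0.999 or more. These 9 genes were all ASH1-marked, and NCU09633, NCU04708 and NCU08813 were also listed for H3K27me2/3. Of all genes 20.2% were marked and 8.59% listed. Among genes with no count in WT and 10 or more in both *ash1*(Y888F) libraries, 109 were marked and 11 unmarked. Marked genes thus prevail among profiles of this kind, and the marks of the 9 are no result about the members. Many genes came close, with 139, 418 and 383 genes above 0.95 for *mat A-1*, *mat A-2* and *mat A-3*. Among themselves, *mat A-1* correlated with *mat A-2* at 0.95 and with *mat A-3* at 0.953, and *mat A-2* with *mat A-3* at 0.989.

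Over the 6 *mat A* libraries and 8172 genes, the lists changed. They were NCU01995, NCU03538 and NCU09046 for *mat A-1*, NCU03531, NCU02125 and NCU08569 for *mat A-2*, and NCU08838, NCU08813 and NCU07969 for *mat A-3*. NCU08813 was the only gene named in both. NCU03538 and NCU02125 were on the unmarked list, and the other 7 were marked, with the same limit. A high correlation did not need a large change, as NCU03538 had 260 to 321 counts in the controls and 370 and 379 in *ash1*(Y888F).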

How the data were processed

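The authors deposited raw counts per gene for each RNA library. Stranded single-end reads had been filtered and trimmed (Stacks), aligned (TopHat2), sorted (SAMtools) and counted by strand (HTSeq), in versions not given in the sources used here. Reads assigned to no gene, 4.89 to 14.8% per library, entered neither library sizes nor tests. In a deposited table without column names, 4 columns are copies of named libraries, and 4 were left out as no label gives their sample. The authors' ChIP-seq gene lists, mapped with Bowtie2 and averaged with deepTools, carry a score of 0 for each gene and were used as lists. Their tables of fold changes with adjusted p-values, and of H3K27 coverage ratios, were not used.

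Strains came from the titles and the study's strain table. The quasi-likelihood test of edgeR 4.0.16 (R 4.3.3) compared each strain, by its 2 libraries, with the 2 of WT, using TMM and the default filter on low counts (minimum 10). Genes with an adjusted p under 0.1 (Benjamini-Hochberg, over all genes tested) were called. Standard errors are the absolute log2 change over the square root of F. CPM used counts in genes, without TMM. A planned permutation test of *mat A* against *mat a* libraries is not given, since the *mat a* strain lacks these genes. The study describes the libraries as biological replicates. They had a Spearman correlation of 0.985 (WT, parent, Δ*set-2*) and 0.959 (*ash1*(Y888F)), and none were identical. Alternatives were RLE factors, DESeq2 1.42.0, no filter, all 4 groups in the fit, a replicate block, adjusted p under 0.05, either or both *mat A* controls, and each library left out. Library totals without scaling, and DESeq2 with the parent as control, were added after seeing the data.

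Folds from counts used library totals, and a group at 0 was given the floor of 3 counts. Named genes are the members, 5 neighbours on either side, the 3 most similar profiles for each member, called pathway genes and label checks. NCU01961 and NCU01957 apart, values of uncalled or marker genes were chosen after they were seen. Members and lists were chosen with earlier results of these data known. The fits were tested on simulated counts with 100 genes changed 2-fold and 100 changed 8-fold. Of the 2-fold changes, 8 were called in *ash1*(Y888F), 44 in the parent and 35 in Δ*set-2*. Of the 8-fold changes, 92, 99 and 98 were called. Other software was matplotlib 3.10.9, scipy 1.17.1, pandas 2.3.3 and numpy 2.4.6 under Python 3.11.15.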

Additional observations from a re-analysis of the deposited data

How the results depend on the processing

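The calls of *mat A-1*, *mat A-2* and *mat A-3* as higher in *ash1*(Y888F) kept their direction and stayed past the threshold under all 14 alternatives, with adjusted p (edgeR or DESeq2) of 2.96e-17 to 0.00591, 4.04e-06 to 0.0130 and 2.03e-06 to 0.0206. For *mat A-2* and *mat A-3*, tested only through the mutant libraries, this is no sign of stability. Where leaving out a library left 1 in a group, its spread was taken from the other group. The fitted log2 changes ranged from 4.25 to 5.07, 8.15 to 8.79 and 5.89 to 9.08, and with libraries left out from 4.25 to 5.07, 8.64 to 8.76 and 5.89 to 8.96. For *mat A-1* in Δ*set-2*, a strain that does not carry the gene, the alternatives are no test of stability. In the parent, *mat A-1* turned to -0.46 without replicate 2 and ranged up to 0.56. Library totals in place of TMM moved the median log2 change of all genes from 0.01 to 0.13 in *ash1*(Y888F) and from 0.01 to 0.18 in Δ*set-2*, where the share of calls that were higher went from 52.2 to 65.2%.

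Genes called in *ash1*(Y888F) numbered 1326, and 843 (without WT replicate 2) to 2232 (without *ash1*(Y888F) replicate 1) with a library left out. In Δ*set-2* 3211 became 1450 (without WT replicate 2) to 2953, with 1838 without Δ*set-2* replicate 2. In the parent 133 became 537 with DESeq2, 40 with all groups in the fit, 5 at an adjusted p under 0.05, and 80 to 242 with a library left out.

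With the replicate number as a block, the counts were 1188 in *ash1*(Y888F), 2709 in Δ*set-2* and 2429 in the parent, and no call of the 3 genes changed (log2 changes 4.68, 8.70 and 6.75 in *ash1*(Y888F)). Deviations of same-numbered libraries correlated at 0.605 for WT and the parent and at -0.214 to 0.396 for the other pairs of strains, and the labels tie no number to a shared culture or day, so the numbers were not taken as pairs. Depth limits *mat A-2* and *mat A-3*, which could not be told from 0 outside *ash1*(Y888F).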
